A study of Mus musculus with 33 samples.

Results

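The genes described here moved most of their mRNA 3' ends from the downstream to the upstream poly(A) site in cultured mouse esophageal basal cells treated to delete Nudt21. PAS-seq, which sequences the 3' ends of transcripts, was deposited as 1 ratio of proximal (upstream) to distal (downstream) site use per gene and group. Each ratio was converted to a proximal share, the percentage of the use of both sites that fell to the proximal site. A gene was included where its proximal share in KO day 4 cells lay 50 or more percentage points above its share in control cells. This held for 978 of 4324 genes with a deposited pair of sites. Another 1177 genes shifted by 20 to under 50 points, 2167 shifted by less than 20 points or towards the distal site, and 2 had no control ratio. The genes were thus chosen by the KO and control shares, which are given as a description without a test.

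A pre-mRNA that carries several poly(A) sites can be cleaved at any of them, and the choice sets where its 3' UTR ends. Nudt21 encodes CFIm25, the subunit of cleavage factor Im that binds UGUA elements, which often lie upstream of distal sites, and its loss is known from other cells for a broad move to proximal sites. A shorter 3' UTR encodes the same protein but lacks the miRNA and protein binding sites of the lost stretch, and a proximal site inside an intron instead shortens the coding part. The deposited table does not give the positions of the sites, so these situations were not separated here.

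All cells were basal cells of the mouse esophagus with the genotype Nudt21 fl/fl; R26CreER, in which a tamoxifen-activated Cre is made from the R26 locus and removes the floxed alleles. KO cells received 0.05 uM 4OHT (4-hydroxytamoxifen, the active form of tamoxifen) for 2, 4 or 6 days. Hypomorph cells received 0.05 uM 4OHT together with 50 ng/ml DOX (doxycycline) for 4 or 6 days, so the hypomorph state and doxycycline cannot be told apart. Control cells, called day 0, received ethanol and kept both floxed alleles. The labels give 4 days of ethanol for the control mRNA samples and no duration for the control PAS-seq samples. The same control served every time, so at days 2 and 6 the length of treatment cannot be told apart from the KO or hypomorph state. No group received 4OHT without deletion of Nudt21, so effects of the deletion, of 4OHT and of active Cre cannot be told apart. Every group grew in the same medium, which held a ROCK inhibitor and inhibitors of GSK3, TGF-beta and BMP signalling. Poly(A)-selected mRNA was sequenced in 3 libraries of each of the 6 groups, and PAS-seq covered control, KO day 4 and hypomorph day 4 cells in triplicate.

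The mRNA libraries held 16.3 to 91.4 M (mega) reads on listed genes, with all KO day 2 libraries above 50 M and all day 0 libraries below 20 M. Nudt21 itself stood at 1.34 to 3.95 scaled CPM (counts per mega reads, rescaled by the authors) in the 9 KO libraries, at 0.999 to 6.25 in the 6 hypomorph libraries and at 12.2 to 14.2 in the 3 day 0 libraries. All 10 listed basal markers were present, at a summed 32123 to 35553 scaled CPM in KO day 6 cells and 31575 to 32732 at day 0. The summed level of 8 suprabasal markers was 9549 to 11719 scaled CPM at KO day 6 and 4238 to 6722 at day 0, and its part in the KO day 6 results was not tested. Transcripts of Alb, the liver albumin gene, exceeded 100 scaled CPM in 7 libraries, of which 5 were KO libraries (1, 2 and 2 after 2, 4 and 6 days) and 2 were day 0 libraries. Calls lost without these 7 libraries, hereafter those rich in Alb, are given beside the genes concerned, and their cause was not tested. Leaving them out keeps 1 library each of day 0, KO day 4 and KO day 6. In a lost call, Alb and the smaller number of libraries therefore cannot be told apart.

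The rule of 50 points requires a proximal share of at least 50% in KO and at most 50% in control cells. In the 978 genes the shares ran from 50.6% to 100% in KO and from 0% to 50% in control cells. The median proximal share was 84.9% in KO cells (quartiles 73.7% and 93.0%) and 11.9% in control cells (quartiles 4.45% and 23.6%). The KO share reached 90% or more in 347 genes, and the control share lay under 10% in 425. The authors' deposited table called 935 of the 978 genes (95.6%) shortened in KO cells and left 43 uncalled, beside 2135 of all 4324 genes (49.4%) called shortened. These calls rest on the same ratios that chose the genes, so nothing is read from the share. The ratios were pooled over replicates by the authors and carry no read depth, so neither an error nor a detection limit can be attached to a share.

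In 5 genes the proximal site was listed at 100% in KO cells and at 0% in control cells. They were Yeats4, a reader of acetylated histones at chr10:117215141-117224507, Hells, a chromatin remodeller needed for DNA methylation at chr19:38930262-38970470, and Vcpip1, a deubiquitinase that works with VCP at chr1:9718622-9748382. The others were Rmnd5a, a subunit of the CTLH ubiquitin ligase at chr6:71388634-71440637, and Atp8a1, a phospholipid flippase at chr5:67618139-67847484. These are GRCm38 gene spans from RefSeq, not positions of poly(A) sites. Next in order came Mapk8, the kinase JNK1, with 97.3% in KO cells, Mbtd1, a chromatin reader, with 96.8%, Rsbn1 with 95.8%, Trappc13, a subunit of the TRAPP vesicle tether, with 95.8%, and Chd6, a chromatin remodeller, with 95.7%. All of these 5 were at 0% in control cells. Hells was among the 43 genes that the authors did not call shortened in KO cells.

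Genes at the edge of the set had intermediate shares. Just inside were Mrpl16, a mitochondrial ribosomal protein, with 78.6% in KO and 28.6% in control cells, Osbp, an oxysterol-binding protein, with 60% in KO and 10% in control cells, and Dyrk1a, a protein kinase, with 90% in KO and 40% in control cells. Just outside were Tbl2 with 61.9% in KO and 11.9% in control cells, the centriole component Odf2 with 63.6% in KO and 13.6% in control cells, and the mRNA export factor Chtop with 91.9% in KO and 42.0% in control cells. In all, 5 genes lay within 1e-06 of 50 points.

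**Figure D1:**
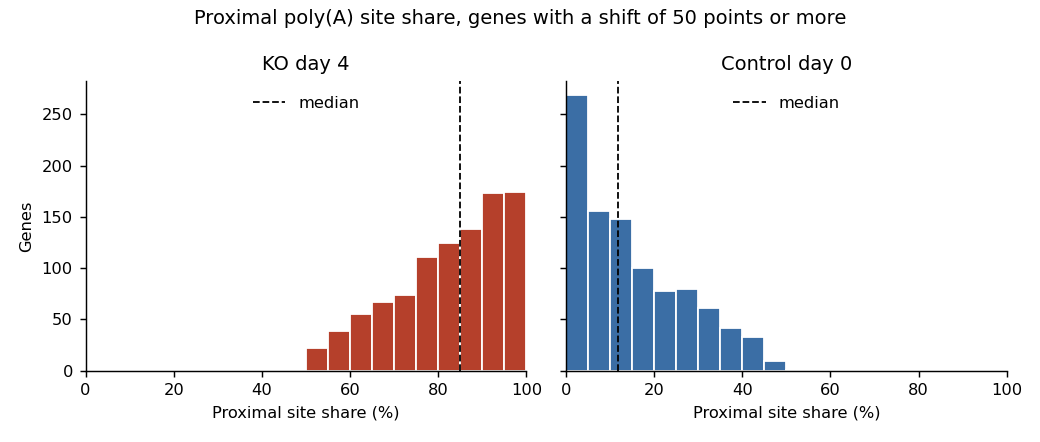
Histograms of the proximal site share (percent of the use of both sites) of the 978 large-shift genes, in KO day 4 cells (left) and in control cells (right), with the number of genes on the vertical axis. The dashed lines mark the medians of 84.9% in KO and 11.9% in control cells.

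The large-shift genes had long transcripts. The deposited length, the exonic bases that the authors counted reads over, had a median of 5207.5 bases in the 978 genes, 4209 bases in the genes that shifted by 20 to under 50 points and 3023 bases in those below 20 points. Across bins of the shift the median length was 2722.5 bases for shifts of up to 20 points to the distal site, 3031 bases from 0 to 20 points and 6184.5 bases at 90 points or more. The 133 genes that shifted by more than 20 points the other way, to the distal site, also had long transcripts, with a median of 4982 bases. Within the 978 genes length followed the size of the shift only weakly (Spearman's rho 0.10, Pearson's r 0.11, across genes), against rho 0.35 and r 0.30 over the 4322 genes with both ratios. Genes are not independent replicates, so these coefficients describe the table.

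Gene spans differed in the same way, whereas levels at day 0 were alike. RefSeq spans in GRCm38 had a median of 46867 bases in the large-shift genes and 19977 bases in the genes below 20 points. The median day 0 level was 78.4 scaled CPM in the large-shift genes, 80.4 in the genes that shifted by 20 to under 50 points and 79.9 in those below 20 points. Per kilobase of length the medians were 14.6, 18.6 and 26.0 scaled CPM in the same order.

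**Figure D2:**
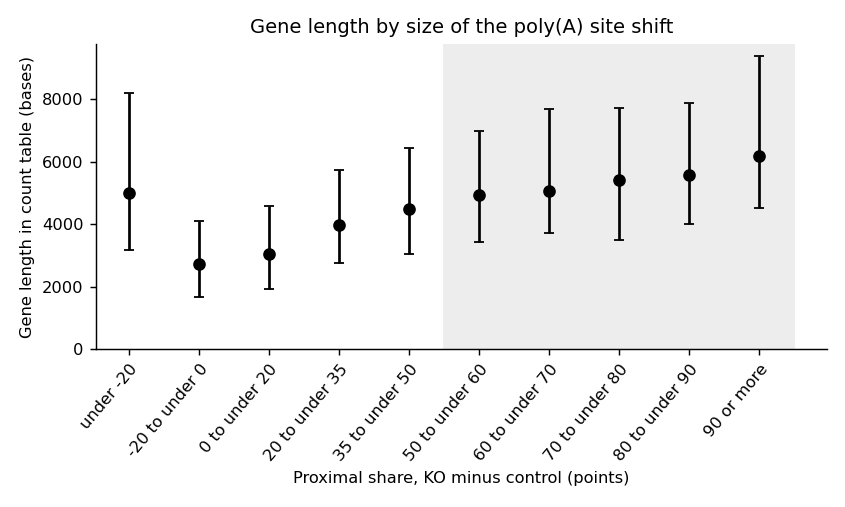
Deposited length in bases by bin of the shift in proximal share (KO minus control, percentage points), with the median and quartiles of the genes in each bin. The median is 2722.5 bases for shifts of up to 20 points to the distal site and 6184.5 bases at 90 points or more. Shading marks the large-shift genes.

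Many large-shift genes differed in mRNA level between KO and day 0 cells, in both directions, and falls outnumbered rises from day 4 on. Levels were compared by limma on log2(scaled CPM + 0.5) in 1 fit of all 18 libraries, with a Benjamini-Hochberg adjusted p under 0.05 as the threshold, and all 978 genes passed the filter on low values. At KO day 2, 168 genes rose and 168 fell (17.2% each), beside 11.7% and 7.29% of all 12344 tested genes. At KO day 4, 237 rose and 374 fell (24.2% and 38.2%), beside 23.7% and 22.3% of all tested genes. At KO day 6, 280 rose and 481 fell (28.6% and 49.2%), beside 33.6% and 37.5%. In either direction 34.4%, 62.5% and 77.8% of the genes passed at days 2, 4 and 6, beside 19%, 46% and 71.1% of all tested genes. The median log2 change of the 978 genes was 0.01, -0.11 and -0.19 at days 2, 4 and 6, beside 0.05, 0.03 and -0.03 over all tested genes. In bulk RNA, fewer cells that express a gene and less RNA per cell cannot be told apart. The labels do not say whether replicates came from separate cultures, and p-values therefore reflect a spread among libraries that could be technical.

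At KO day 2 the even split depended on scaling. With TMM-scaled reads 144 genes rose and 217 fell (14.7% and 22.2%), and with edgeR's quasi-likelihood test 145 rose and 226 fell (14.8% and 23.1%). Of all tested genes 19.1% and 19.7% passed in either direction in these settings. Without the libraries above 100 scaled CPM of Alb, fewer of the 978 genes and fewer of all tested genes passed at each time. The median log2 change of the 978 genes was then 0.02, -0.10 and -0.12 at days 2, 4 and 6. Over all tested genes it was 0.06, 0.03 and 0.004.

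Among genes that shifted by less than 20 points fewer had fallen at days 2 and 4, while at day 6 the share was close to that of the large-shift genes. Of these genes 15.9% rose and 3.65% fell at KO day 2, 24.6% rose and 23.4% fell at day 4, and 27.2% rose and 50.0% fell at day 6. The 8020 tested genes with no pair of sites gave 23.7% up and 18.7% down at day 4 and 36.8% up and 30.9% down at day 6. At day 2 the share of genes that fell was 1.82% for shifts of up to 20 points to the distal site, 11.8% from 35 to 50 points, 16.5% from 60 to 70 points and 26.4% from 80 to 90 points. At day 4 it was 20.7% for shifts of up to 20 points to the distal site, 36.8% from 50 to 60 points, 39.2% from 60 to 70 points, 33.3% from 70 to 80 points and 45.0% from 80 to 90 points. The 36 genes at 90 points or more stood at 16.7% on day 2 and 50% on day 4, so neither day gave a steady climb over the bins. Of the 133 genes that shifted by more than 20 points to the distal site 10.5% fell at day 2 and 31.6% at day 4, more than among those that shifted less that way. At day 6 every bin from 0 points up lay between 46.3% and 58.3%. Within the 978 genes the size of the shift had rank correlations of -0.09, -0.07 and -0.03 with the log2 change at days 2, 4 and 6.

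**Figure D3:**
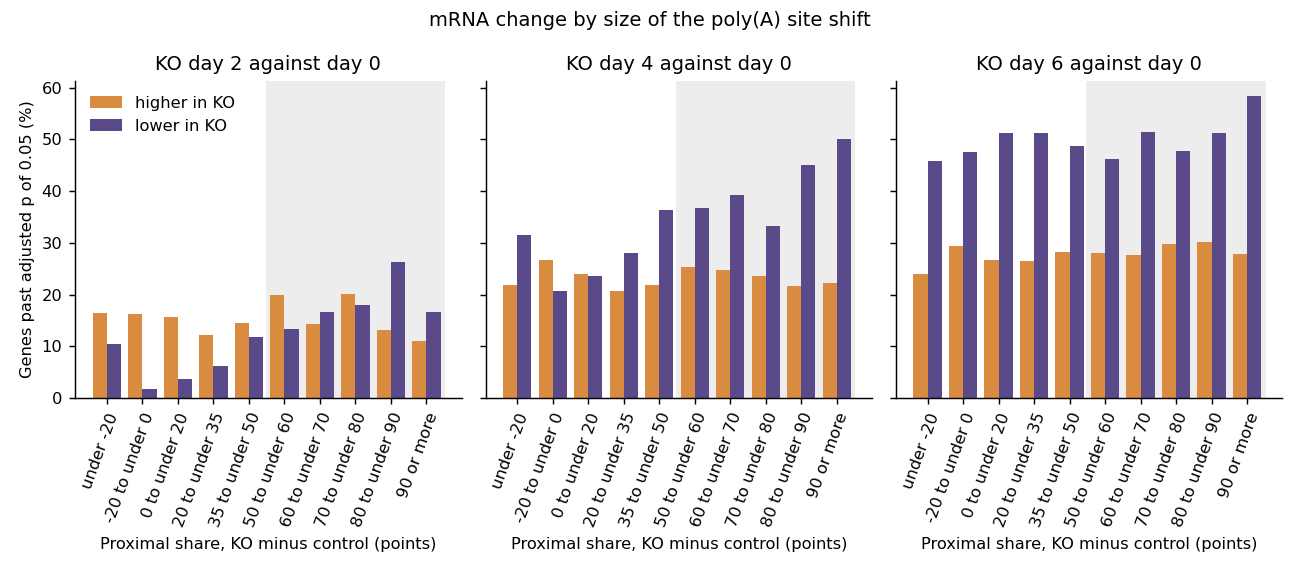
Percentage of genes whose mRNA was higher or lower than at day 0 (limma, adjusted p under 0.05) by bin of the shift in proximal share, for KO days 2, 4 and 6. At day 2 the percentage lower is 1.82% for shifts of up to 20 points to the distal site and 26.4% from 80 to 90 points, while at day 6 the bins from 0 points up lie between 46.3% and 58.3%. Shading marks the large-shift genes.

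Size of change was modest at first. No large-shift gene rose 2-fold or more and 5 (0.511%) fell as far at KO day 2, beside 0.786% and 0.770% of all tested genes. At day 4, 11 rose and 46 fell at least 2-fold (1.12% and 4.70%), beside 4.47% and 2.97%. At day 6, 51 rose and 146 fell by that much (5.21% and 14.9%), beside 13.3% and 13.2%. Of all 4324 genes with a pair of sites 0.925% rose and 2.45% fell at least 2-fold at day 4, and 4.63% and 15.4% at day 6. Among genes that shifted by less than 20 points 0.969% rose as far at day 4 and 4.57% at day 6. The small share of 2-fold rises was therefore not particular to the large-shift genes. A total of 116 of the 978 genes passed the threshold at none of the 3 KO times. The matching count over all tested genes was not made, so nothing is read from this number. The fold changes below are on the log2(scaled CPM + 0.5) scale with their standard errors, which understates the change of genes with low values. Reads were counted over the whole gene, so reads between the proximal and the distal site add to a gene's value, and how much they add was not computed. A call and no overlap of groups were conditions for naming the largest KO rises and falls. Neither is therefore a separate result for those genes.

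Among signalling genes with a large shift, Gng12, a G-protein gamma subunit, fell early and far. Its proximal share was 95.9% in KO and 7.54% in control cells. Gng12 had 201, 214 and 207 scaled CPM at day 0, then 94.9, 86.6 and 92.4 after 2 days of KO, 56.2, 61.9 and 51.4 after 4 days and 55.3, 50.7 and 60.5 after 6 days. All 9 KO libraries lay below all day 0 libraries. The log2 change was -1.18 ± 0.08 (adjusted p = 2.45e-11) at day 2, -1.87 ± 0.08 (adjusted p = 1.52e-16) at day 4 and -1.90 ± 0.08 (adjusted p = 1.17e-17) at day 6. Prkg2, the cGMP-dependent kinase II, had shares of 67.3% in KO and 5.66% in control cells and reached its low more slowly. Prkg2 had 119, 115 and 126 scaled CPM at day 0, then 96.1, 91.7 and 97.6 after 2 days of KO, 48.8, 51.2 and 39.2 after 4 days and 23.1, 17.4 and 24.7 after 6 days, with the KO and day 0 libraries apart at every time. Its log2 change was -1.37 ± 0.11 (adjusted p = 7.53e-11) at day 4 and -2.45 ± 0.11 (adjusted p = 5.85e-17) at day 6. At day 2 it was -0.33 ± 0.11 (adjusted p = 0.0331), a call lost without any 1 of the KO day 2 libraries or without the first or the third day 0 library. The value was then between -0.35 (adjusted p = 0.0728) and -0.30 (adjusted p = 0.105), and -0.25 (adjusted p = 0.297) without the libraries rich in Alb.

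Other signalling genes moved in opposite directions. Mapk8 was at 97.3% in KO and 0% in control cells, and its mRNA had 30.2, 30.1 and 31.8 scaled CPM at day 0, then 22.2, 21.1 and 21.1 after 2 days of KO, 22.7, 19.9 and 15.6 after 4 days and 21.1, 25.4 and 22.7 after 6 days. Every KO library was below every day 0 library, with log2 changes of -0.51 ± 0.11 at day 2, -0.66 ± 0.11 (adjusted p = 2.15e-05) at day 4 and -0.41 ± 0.11 at day 6. Without the libraries rich in Alb, the day 2 and day 6 values were -0.47 (adjusted p = 0.0575) and -0.40 (adjusted p = 0.0596). Rapgef2, an exchange factor for Rap GTPases, rose by 0.47 ± 0.09 on the log2 scale at day 2, 1.26 ± 0.09 at day 4 and 1.44 ± 0.09 at day 6, from shares of 67.2% in KO and 0% in control cells. Plcb4, phospholipase C beta 4, rose by 1.92 ± 0.15 at day 6 (adjusted p = 5.47e-12). Its day 4 value was 0.66 ± 0.15 (adjusted p = 0.000774), and 0.50 (adjusted p = 0.188) without the libraries rich in Alb. Lrp8, an ApoE receptor, fell late: its log2 change was -2.70 ± 0.10 (adjusted p = 6.03e-19) at day 6.

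Among large-shift genes of the ubiquitin system more listed enzymes fell than rose, while Uba6, which is not in that list, rose early. Of the 78 ubiquitin enzymes with a pair of sites 21 had a large shift, of which 1 rose and 5 fell at day 2 (4.76% and 23.8%), 4 rose and 10 fell at day 4 (19.0% and 47.6%), and 7 rose and 9 fell at day 6 (33.3% and 42.9%). Of all tested genes 11.7% rose and 7.29% fell at day 2, and 23.7% rose and 22.3% fell at day 4. Of the 978 genes 17.2% rose and 17.2% fell at day 2, and 24.2% rose and 38.2% fell at day 4. At day 6 the shares of the 21 genes were near the 33.6% and 37.5% of all tested genes. Uba6, an E1 enzyme that activates ubiquitin, had shares of 92.4% in KO and 13.2% in control cells. Uba6 had 74.3, 90.2 and 81.6 scaled CPM at day 0, then 149, 147 and 148 after 2 days of KO, 207, 184 and 180.1 after 4 days and 156, 133 and 166 after 6 days, with every KO library above every day 0 library. Its log2 change was 0.85 ± 0.09 (adjusted p = 4.92e-08) at day 2, 1.21 ± 0.09 (adjusted p = 4.52e-12) at day 4 and 0.88 ± 0.09 (adjusted p = 3.91e-10) at day 6. 

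The ubiquitin genes Vcpip1 and Rmnd5a, with listed shares of 100% in KO and 0% in control cells, changed little or late. Neither is in the list of ubiquitin enzymes. Vcpip1 had 58.1, 54.8 and 62.9 scaled CPM at day 0, then 51.2, 57.4 and 56 after 2 days of KO, 59.6, 54.9 and 61.9 after 4 days and 60.1, 65.4 and 65.1 after 6 days, and its KO libraries overlapped those of day 0 at every time. Its log2 change at day 6 was 0.12 ± 0.08 (adjusted p = 0.221). Rmnd5a rose at day 6, by 0.43 ± 0.13 (adjusted p = 0.00448). Without the third day 0 library this was 0.25 (adjusted p = 0.049), and without the libraries rich in Alb it was 0.32 (adjusted p = 0.102). Rnf170, a ubiquitin ligase of the endoplasmic reticulum at 73.1% in KO and 10% in control cells, had a log2 change of -0.83 ± 0.16 (adjusted p = 0.000144) at day 4. Its values of -0.81 ± 0.16 at day 2 and -0.70 ± 0.16 at day 6 became -0.72 (adjusted p = 0.0795) and -0.48 (adjusted p = 0.169) without the libraries rich in Alb. Usp53, of the ubiquitin-specific protease family, rose by 1.53 ± 0.13 (adjusted p = 1.09e-10) at day 6.

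**Figure D4:**
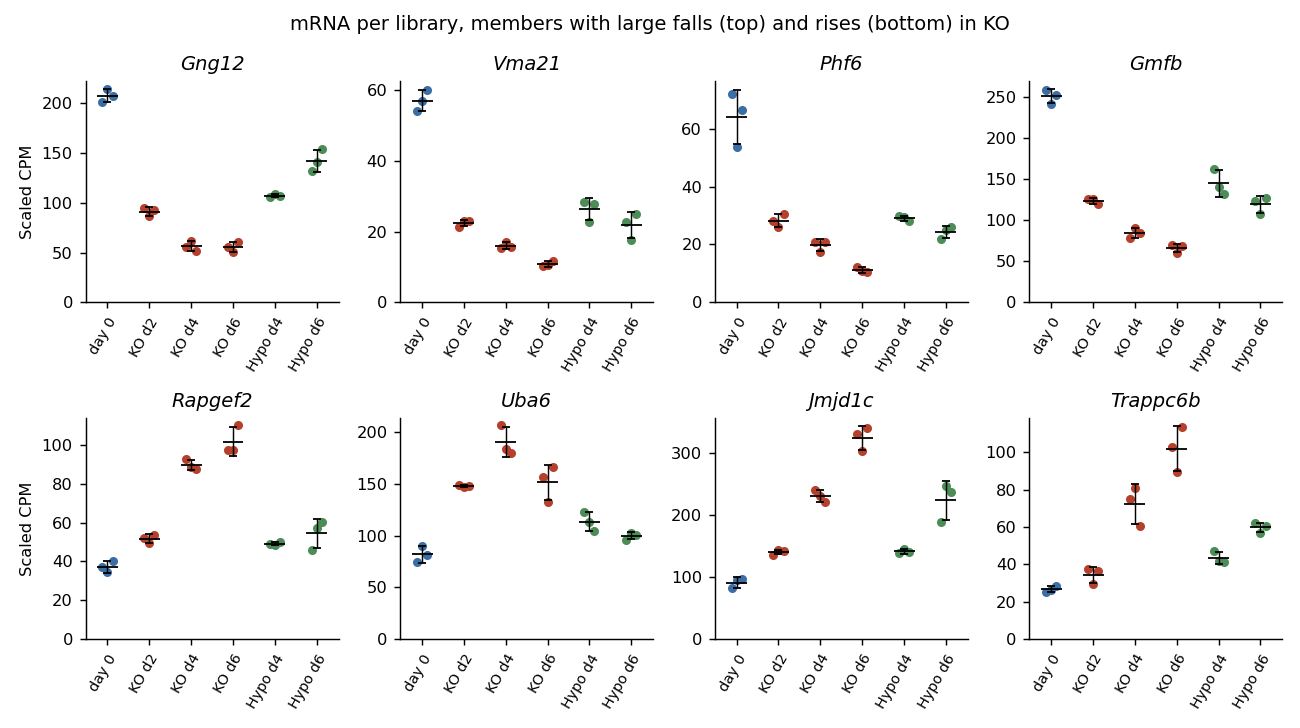
Scaled CPM of 8 large-shift genes in each library of the 6 groups, with points for the 3 libraries of a group, a horizontal line at their mean and bars of 1 SD. Gng12, Vma21, Phf6 and Gmfb (top) lie lower in every KO library than in every day 0 library, and Rapgef2, Uba6, Jmjd1c and Trappc6b (bottom) lie higher. Separation at KO day 4 was a condition for naming the genes, for some of them also at another KO time.

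Genes of the secretory pathway and of organelles took both directions. Vma21, an assembly chaperone of the vacuolar ATPase, is a target of CFIm25 known from other cells, and its shares were 93.8% in KO and 17.7% in control cells. Its level was 16.0 ± 0.914 scaled CPM at KO day 4 and 56.9 ± 3.01 at day 0 (SD, n = 3 each), a log2 change of -1.80 ± 0.12 (adjusted p = 1.06e-12), and the log2 change reached -2.33 ± 0.12 at day 6. Spcs3, a subunit of the signal peptidase, was at 81.9% in KO and 5.38% in control cells. Spcs3 had 167, 179 and 184 scaled CPM at day 0, then 129.8, 117 and 119 after 2 days of KO, 70.2, 63.4 and 62.1 after 4 days and 27.3, 33.1 and 33.8 after 6 days, with all KO libraries below all day 0 libraries. Its log2 change was -0.53 ± 0.09 (adjusted p = 6.31e-05) at day 2, -1.43 ± 0.09 (adjusted p = 1.94e-13) at day 4 and -2.48 ± 0.09 (adjusted p = 1.87e-19) at day 6. Tmx3, an oxidoreductase of the endoplasmic reticulum, used its proximal site at 56.7% in KO cells, against 0% in control cells. It fell, with log2 changes of -0.91 ± 0.09, -1.70 ± 0.09 and -1.75 ± 0.09 over the 3 times.

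The TRAPP subunits diverged. Trappc6b had shares of 92.6% in KO and 17.0% in control cells and 25.4, 26.1 and 28.6 scaled CPM at day 0, then 37.3, 29.7 and 36.2 after 2 days of KO, 75.1, 81.1 and 60.7 after 4 days and 103, 89.3 and 114 after 6 days, with every KO library above every day 0 library. It rose by 1.41 ± 0.11 (adjusted p = 1.91e-11) at day 4 and 1.91 ± 0.11 (adjusted p = 3.84e-15) at day 6. At day 2 its log2 change was 0.35 ± 0.11 (adjusted p = 0.0208). This call was lost without the first or the second day 0 library, or without the first or the third KO day 2 library. The value was then between 0.29 (adjusted p = 0.113) and 0.34 (adjusted p = 0.0584). Trappc13 instead had -0.14 at day 4 and -0.37 ± 0.09 (adjusted p = 0.000734) at day 6, the second of which was -0.33 (adjusted p = 0.0858) without the libraries rich in Alb. Pgap1, which deacylates GPI anchors, rose by 2.08 ± 0.18 (adjusted p = 2.14e-08) at day 6. At day 4 its log2 change was 0.84 ± 0.18 (adjusted p = 0.00118), and 0.33 (adjusted p = 0.283) without those libraries, and the second day 0 library stood above the other two.

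Nuclear genes with a large shift included steep falls. Phf6, a PHD-finger chromatin protein, was at 92.1% in KO and 13.3% in control cells. Phf6 had 71.9, 53.8 and 66.3 scaled CPM at day 0, then 28.3, 26.0 and 30.5 after 2 days of KO, 20.8, 17.3 and 20.9 after 4 days and 12.3, 10.7 and 10.4 after 6 days. The KO and day 0 libraries were apart at every time, and the log2 change was -1.16 ± 0.12 (adjusted p = 3.74e-08) at day 2, -1.67 ± 0.12 (adjusted p = 2.66e-12) at day 4 and -2.46 ± 0.12 (adjusted p = 7.69e-17) at day 6. Hells, switched from end to end in the pooled ratios, had 178, 148 and 201 scaled CPM at day 0, then 157, 154 and 158 after 2 days of KO, 103, 86.3 and 90.8 after 4 days and 17.6, 20.3 and 20.2 after 6 days. Its day 2 libraries overlapped those of day 0, while all day 4 and day 6 libraries lay below them. The log2 change was -0.90 ± 0.13 (adjusted p = 6.11e-06) at day 4 and -3.14 ± 0.13 (adjusted p = 3.57e-15) at day 6. Lmnb2, which encodes lamin B2 of the nuclear lamina, followed the same course, with -0.66 ± 0.11 at day 4 and -2.62 ± 0.11 at day 6. Mbtd1 fell, with log2 changes of -0.60 ± 0.12 at day 4 and -1.05 ± 0.12 at day 6.

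Other chromatin and transcription genes rose or changed little. Jmjd1c, of a histone demethylase family, had shares of 96.8% in KO and 4.71% in control cells. Jmjd1c had 81.9, 94.9 and 97.4 scaled CPM at day 0, then 137, 144 and 142 after 2 days of KO, 241, 231 and 221 after 4 days and 331, 304 and 341 after 6 days, with no overlap between KO and day 0 libraries. Its log2 change was 0.62 ± 0.08 at day 2, 1.34 ± 0.08 at day 4 and 1.83 ± 0.08 (adjusted p = 6.47e-17) at day 6. Grhl1, an epithelial transcription factor, was at 60.6% in KO and 3.45% in control cells and rose by 2.13 ± 0.21 (adjusted p = 4.48e-07) at day 6. Its day 4 log2 change was 0.84 ± 0.21 (adjusted p = 0.00514), and 0.15 (adjusted p = 0.558) without the libraries rich in Alb. Yeats4 had 33.8, 32.1 and 30.0 scaled CPM at day 0, then 36.1, 33.5 and 32.3 after 2 days of KO, 22.6, 28.8 and 27.2 after 4 days and 21.3, 17.2 and 23.6 after 6 days, and its log2 change was -0.63 ± 0.12 (adjusted p = 5.08e-05) at day 6, or -0.44 (adjusted p = 0.0738) without the same libraries. Chd6 had a log2 change of -0.18 at day 6 that did not pass, and at day 4 of -0.55 ± 0.11 (adjusted p = 0.000192), or -0.42 (adjusted p = 0.139) without them.

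A further group of named genes covered the cytoskeleton, RNA-binding proteins and genes of other kinds. Gmfb, which takes apart branched actin, had shares of 93.5% in KO and 17.7% in control cells and fell at every time, with log2 changes of -1.02 ± 0.08, -1.57 ± 0.08 and -1.92 ± 0.08. Cpeb2, which binds cytoplasmic polyadenylation elements, had shares of 90.4% in KO and 4.76% in control cells and 20.7, 23.3 and 25.7 scaled CPM at day 0, then 31.3, 37.8 and 33.0 after 2 days of KO, 43.3, 37.9 and 47.3 after 4 days and 95.0, 98.2 and 89.7 after 6 days. All of its KO libraries were above those of day 0. It rose by 0.87 ± 0.11 (adjusted p = 1.69e-07) at day 4 and 2.00 ± 0.11 (adjusted p = 1.44e-15) at day 6, and its day 2 change of 0.54 ± 0.11 was 0.46 (adjusted p = 0.0785) without the libraries rich in Alb. Zfp706, a zinc finger gene, stood out by an early fall that did not deepen. Zfp706 had 149, 149 and 151 scaled CPM at day 0, then 67.0, 64.3 and 71.2 after 2 days of KO, 69.9, 73.8 and 75.6 after 4 days and 82.0, 81.0 and 83.3 after 6 days, all KO libraries lying below day 0, and log2 changes of -1.14 ± 0.08, -1.03 ± 0.08 and -0.86 ± 0.08. Nbeal1, a BEACH-domain protein, rose by 1.95 ± 0.11 at day 6, and Tmem185b by 1.40 ± 0.08. Sdad1, which acts in ribosome biogenesis in yeast, had its largest rise at day 2, with 0.88 ± 0.07 (adjusted p = 6.49e-10), and 0.78 ± 0.07 at day 4.

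Some genes with very large listed shifts had no mRNA change past the threshold. Atp8a1 had 41.6, 39.9 and 42.3 scaled CPM at day 0, then 41.4, 45.7 and 43 after 2 days of KO, 37.8, 39.2 and 38.3 after 4 days and 30.6, 37.8 and 38.0 after 6 days, with log2 changes of 0.07 ± 0.11, -0.10 ± 0.11 and -0.22 ± 0.11. Its day 4 and day 6 libraries lay just below those of day 0, and the changes did not pass. Rcor3, of the CoREST corepressor family, was at 93.1% in KO and 4% in control cells with log2 changes of -0.02 ± 0.13, -0.16 ± 0.13 and 0.13 ± 0.13, and its KO libraries overlapped day 0 at each time. Elovl4, a fatty acid elongase, was at 92.3% in KO and 3.12% in control cells and had 26.3, 43.7 and 25.5 scaled CPM at day 0, then 37.1, 31.2 and 34.9 after 2 days of KO, 33.2, 30.8 and 27.9 after 4 days and 37.9, 28.4 and 34.2 after 6 days. The second day 0 library was far above the other two, and without it the log2 change was 0.40 (adjusted p = 0.0207) at day 2 and 0.36 (adjusted p = 0.00868) at day 6.

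The counts of each list stand beside the shares of all 978 large-shift genes and of all tested genes. The 978 genes gave 17.2% up and 17.2% down at KO day 2, 24.2% and 38.2% at day 4 and 28.6% and 49.2% at day 6. All tested genes gave 11.7% up and 7.29% down at day 2, 23.7% and 22.3% at day 4 and 33.6% and 37.5% at day 6. Counts were not made for list members with smaller shifts, and whether those differ was not tested. Of the cleavage and polyadenylation factors, 5 of 15 with a pair of sites were large-shift genes: Cpsf2, Cstf2, Papola, Pcf11 and Ppp1cb. At KO day 2 none rose and 2 fell, at day 4, 1 rose and 3 fell, and at day 6, 1 rose and 4 fell, with median log2 changes of -0.23, -0.39 and -0.58. Cstf2, the RNA-binding subunit of the cleavage stimulation factor, was at 84.5% in KO and 19.0% in control cells. Cstf2 had 140.2, 143 and 157 scaled CPM at day 0, then 129.5, 123 and 123 after 2 days of KO, 96.4, 88.8 and 83.2 after 4 days and 42.0, 37.7 and 46.8 after 6 days, with the day 4 and day 6 libraries all below day 0. Its log2 change was -0.71 ± 0.08 (adjusted p = 5.14e-08) at day 4 and -1.79 ± 0.08 (adjusted p = 5.21e-17) at day 6. Papola, a poly(A) polymerase, fell, with log2 changes of -0.39 ± 0.07 at day 4 and -0.87 ± 0.07 at day 6, and Cpsf2, a subunit of the cleavage and polyadenylation specificity factor, had -0.58 ± 0.08 at day 6. Pcf11, a cleavage factor II subunit, was the member that rose, by 0.67 ± 0.10 (adjusted p = 1.46e-06) at day 4 and 1.02 ± 0.10 (adjusted p = 1.86e-10) at day 6. Ppp1cb, the beta form of protein phosphatase 1, fell, with a log2 change of -0.99 ± 0.08 at day 4. Its day 6 log2 change of -0.22 ± 0.08 (adjusted p = 0.0118) was -0.15 (adjusted p = 0.115) without the second day 0 library, -0.18 (adjusted p = 0.0629) without the second KO day 6 library and -0.30 (adjusted p = 0.0908) without the libraries rich in Alb.

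Splicing factors went 1 way. Of 29 with a pair of sites 8 were large-shift genes, none of which rose at any time. At day 2, 4 fell, at day 4, 7 fell and at day 6 all 8 fell, with median log2 changes of -0.21, -0.63 and -1.09, beside 0.05, 0.03 and -0.03 over all tested genes. Srsf1, an SR protein that promotes exon inclusion, used its proximal site at 94.8% in KO cells, against 0% in control cells. Srsf1 had 533, 519 and 548 scaled CPM at day 0, then 349.8, 348 and 349 after 2 days of KO, 227, 216 and 237 after 4 days and 115, 115 and 122 after 6 days, with every KO library below every day 0 library. Its log2 change was -0.61 ± 0.07 (adjusted p = 4.93e-07) at day 2, -1.23 ± 0.07 (adjusted p = 5.14e-14) at day 4 and -2.18 ± 0.07 (adjusted p = 5.4e-20) at day 6. The other members at day 6 were Srsf2 with -1.79, Srsf10 with -1.69, Sf3b3 with -1.47, Prpf4b with -0.71, Prpf38b with -0.64, Prpf18 with -0.61 and Sf3b1 with -0.38, all on the log2 scale.

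Among RNA-binding proteins 11 of 43 were large-shift genes. At day 2, 1 rose and 2 fell (9.09% and 18.2%), at day 4, 2 rose and 8 fell (18.2% and 72.7%). At day 6, 2 rose and 7 fell (18.2% and 63.6%), beside 33.6% and 37.5% of all tested genes. Fmr1, the fragile X protein that represses translation, was at 82.9% in KO and 5.26% in control cells and fell, with log2 changes of -0.75 ± 0.08 (adjusted p = 2.69e-08) at day 4 and -1.47 ± 0.08 (adjusted p = 4.35e-15) at day 6. Rbm27 was at 99.2% in KO and 46.6% in control cells and rose by 0.62 ± 0.09 at day 2 and 0.60 ± 0.09 at day 4. The hnRNPs, which package nascent transcripts, held 4 large-shift genes of 16. At day 6 all 4 fell, with a median log2 change of -0.70, among them Hnrnpa3 at -1.57 ± 0.11 (adjusted p = 1.75e-11). Of 33 RNA helicases 5 were large-shift genes, of which 1 rose and 3 fell at day 4 and all 5 fell at day 6. Ddx46, a helicase of the spliceosome, fell, with log2 changes of -0.56 ± 0.09 at day 4 and -1.24 ± 0.09 at day 6.

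Of 114 kinases and phosphatases 41 had a large shift. At day 2, 5 rose and 13 fell (12.2% and 31.7%), at day 4, 6 rose and 24 fell (14.6% and 58.5%), and at day 6, 7 rose and 26 fell (17.1% and 63.4%), with medians of -0.10, -0.32 and -0.27. The prefix that defined the list also took in Cdkn2aip, which is not a kinase. Membrane transporters and transmembrane genes, 42 of 161, gave 5 up and 12 down at day 2 (11.9% and 28.6%), 7 up and 22 down at day 4 (16.7% and 52.4%) and 8 up and 30 down at day 6 (19.0% and 71.4%). Slc10a7 was among those that fell, with log2 changes of -1.34 ± 0.13 (adjusted p = 2.48e-09) at day 4 and -1.96 ± 0.13 (adjusted p = 1.63e-13) at day 6. Transcription factor families, 17 of 45, gave 3 up and 9 down at day 4 (17.6% and 52.9%) and 4 up and 11 down at day 6 (23.5% and 64.7%), and this prefix list also held Nrp1, Nrp2 and Nrg1, which are a pair of receptors and a growth factor. Creb1, which binds cAMP response elements, was at 99.7% in KO and 27.7% in control cells and fell, with log2 changes of -0.82 ± 0.09, -1.25 ± 0.09 and -1.05 ± 0.09 over the 3 times.

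For the next lists the shares of all tested genes were 23.7% up and 22.3% down at day 4 and 33.6% up and 37.5% down at day 6. Of 123 small GTPases and regulators 43 were large-shift genes, of which 14 rose and 12 fell at day 4 (32.6% and 27.9%) and 13 rose and 14 fell at day 6 (30.2% and 32.6%). Rab27b, an exocytic Rab GTPase, was at 96% in KO and 13.6% in control cells, with 26.6, 27.8 and 19.6 scaled CPM at day 0, then 12.1, 12.9 and 11.7 after 2 days of KO, 9.78, 9.03 and 10.5 after 4 days and 22.5, 21.5 and 20.1 after 6 days. All libraries of KO days 2 and 4 lay below day 0, with log2 changes of -0.97 ± 0.14 and -1.28 ± 0.14, while those of day 6 overlapped it. Of 116 genes of vesicle and membrane traffic 26 had a large shift, of which 10 rose and 6 fell at day 4 (38.5% and 23.1%) and 10 rose and 8 fell at day 6 (38.5% and 30.8%). Snx25, a sorting nexin, fell, with log2 changes of -0.77 ± 0.12 at day 4 and -1.16 ± 0.12 at day 6. Zinc finger and chromatin genes, 32 of 104, gave 9 up and 9 down at day 4 (28.1% each) and 11 up and 12 down at day 6 (34.4% and 37.5%).

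Of the lists, those of translation and of mitochondrial genes held the smallest shares of large shifts. Only 6 of 125 translation factors and ribosomal proteins with a pair of sites (4.80%) and 4 of 62 mitochondrial genes (6.45%) were in the set, beside 978 of 4324 genes as a whole. This difference was not tested. One of the 6 was the kinase gene Rps6ka3, which a ribosomal prefix had taken in and which fell, with a log2 change of -0.56 ± 0.08 at day 4. Eif4b, a translation initiation factor, rose by 0.54 ± 0.07 (adjusted p = 5.84e-08) at day 6. Of 22 genes of sterol and lipid synthesis 6 had a large shift. At day 2, 3 of these rose and none fell, at day 4, 2 rose and 1 fell, and at day 6, 2 rose and 2 fell.

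Genes listed as CFIm25 targets in other cells were in the set in 6 of 14 cases: Ccnd1, Fndc3b, Gsk3b, Lamc1, Vma21 and Wdr5. At day 2, 4 rose and 1 fell (66.7% and 16.7%), beside 11.7% and 7.29% of all tested genes. At day 4, 3 rose and 1 fell (50% and 16.7%), beside 23.7% and 22.3%. At day 6, 3 rose and 3 fell (50% each), beside 33.6% and 37.5%. With only 6 genes nothing is read from these shares. Lamc1, the laminin gamma 1 chain, was at 93.5% in KO and 20.9% in control cells. Lamc1 had 313, 309 and 361 scaled CPM at day 0, then 439.5, 474 and 475 after 2 days of KO, 491, 503 and 494 after 4 days and 642, 668 and 694 after 6 days, all KO libraries lying above day 0. It rose by 0.50 ± 0.09 (adjusted p = 0.00012) at day 2, 0.60 ± 0.09 (adjusted p = 1.66e-06) at day 4 and 1.03 ± 0.09 (adjusted p = 1.62e-11) at day 6. Ccnd1, cyclin D1, was at 67.4% in KO and 13.1% in control cells and had 414, 429 and 454 scaled CPM at day 0, then 534, 519 and 559.7 after 2 days of KO, 447, 504 and 466 after 4 days and 166, 158 and 204 after 6 days. All of its day 6 libraries lay below day 0, a log2 change of -1.30 ± 0.08 (adjusted p = 5.41e-14), whereas at day 4 it was 0.13 ± 0.08 and did not pass. Wdr5, a scaffold of histone H3 methyltransferases, fell, with a log2 change of -0.53 ± 0.07 (adjusted p = 1.27e-07) at day 6. Gsk3b, a kinase of Wnt and insulin signalling, rose at day 6 by 0.42 ± 0.08, and Fndc3b by 0.58 ± 0.09.

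In hypomorph cells the authors' deposited table called 624 of the 978 genes shortened and 9 lengthened (63.8% and 0.920%) and left 345 uncalled. Of all 4324 genes 942 were called shortened and 38 lengthened. These calls share their control samples with the KO shares that chose the genes. The hypomorph ratio was identical to the KO ratio, within 1e-06, in 794 of the 978 genes, so no hypomorph share is given and the direction of these calls rests on the authors.

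At the mRNA level 118 large-shift genes rose and 310 fell in hypomorph cells at day 4 (12.1% and 31.7%), beside 17.5% and 14.1% of all tested genes. At day 6, 370 rose and 346 fell (37.8% and 35.4%), beside 35.9% and 31.3%. Of the 624 genes called shortened in hypomorph cells 11.9% rose and 30.9% fell at hypomorph day 4, and of the 345 uncalled genes 12.8% rose and 32.8% fell. Hypomorph and KO libraries were also compared directly. At day 4, 190 large-shift genes were higher and 181 lower in hypomorph than in KO cells (19.4% and 18.5%), beside 13.9% and 10.7% of all tested genes. Without the first KO library there were 160 higher and 119 lower, and without the third hypomorph library 162 higher and 119 lower. At day 6, 483 were higher and 213 lower (49.4% and 21.8%), beside 37.7% and 27% of all tested genes, with a median log2 difference of 0.20 against 0.07 over all tested genes. In either direction 428 and 716 genes passed for hypomorph against day 0 at days 4 and 6, beside 31.7% and 67.2% of all tested genes, and 371 and 696 for hypomorph against KO, beside 24.5% and 64.7%. Among the genes that shifted by less than 20 points 53.3% were higher and 18.7% lower at day 6. Without the libraries rich in Alb fewer large-shift genes passed at day 4, for hypomorph against day 0 and for hypomorph against KO. The median log2 change for hypomorph day 4 against day 0 was then -0.11, beside 0.01 over all tested genes.

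Stam, Cald1 and Epdr1 fell in KO cells and stood above day 0 in hypomorph cells at day 6. Stam, a subunit of the ESCRT-0 complex that sorts ubiquitinated cargo, was at 93.8% in KO and 5% in control cells. At day 6 Stam had 144, 159.6 and 171 scaled CPM in hypomorph and 32.7, 26.4 and 31.2 in KO cells, and 41.6, 48.6 and 47.4 at day 0. The hypomorph libraries were the highest of the 3 groups and overlapped neither of the others. The log2 difference between hypomorph and KO was 2.38 ± 0.10 (adjusted p = 6.22e-17) at day 6 and 0.95 ± 0.10 (adjusted p = 8.78e-08) at day 4. Cald1, caldesmon, which binds actin and tropomyosin, had 499, 565 and 617 scaled CPM in hypomorph and 107, 122 and 122 in KO cells at day 6, and 295, 282 and 306 at day 0. Hypomorph libraries lay above and KO libraries below those of day 0, with a log2 difference of 2.25 ± 0.08 (adjusted p = 1.76e-18) between hypomorph and KO. Acta2, the 1 of 3 muscle markers listed in the table, was at 53.8 to 68.5 scaled CPM in hypomorph day 6 libraries, 49.2 to 56.1 in KO day 6 libraries and 5.06 to 8.68 at day 0, and its part in this result was not tested. Epdr1 had 32.2, 38.3 and 40.9 scaled CPM in hypomorph and 5.39, 2.91 and 3.93 in KO cells at day 6, and 21.3, 20.3 and 23.3 at day 0, with a log2 difference of 3.07 ± 0.15 (adjusted p = 1.25e-15) between hypomorph and KO.

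Several named genes that fell in KO cells were higher in hypomorph than in KO cells at day 4. Gng12 differed by 0.92 ± 0.08 (adjusted p = 2.51e-09), Tmx3 by 0.96 ± 0.09 (adjusted p = 1.6e-08), Prkg2 by 0.90 ± 0.11 (adjusted p = 7.86e-07) and Vma21 by 0.70 ± 0.12 (adjusted p = 8.01e-05) on the log2 scale, hypomorph over KO. Rapgef2 and Uba6, which rose in KO cells, were lower in hypomorph cells at that time, by -0.86 ± 0.09 (adjusted p = 7.42e-08) and -0.74 ± 0.09 (adjusted p = 2.95e-07). These genes were named for large KO day 4 changes, and the same KO libraries entered this comparison, which favours differences of the opposite sign. Of all 978 genes 190 were higher and 181 lower.

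Other genes had a change of their own in hypomorph cells. St3gal1, a sialyltransferase, was at 83.7% in KO and 29.5% in control cells. At day 4 St3gal1 had 128, 146 and 147 scaled CPM in hypomorph and 44.9, 45.8 and 47.2 in KO cells, and 48.7, 45.1 and 57.2 at day 0. Hypomorph libraries stood above those of both other groups, which overlapped each other. The log2 change was 1.48 ± 0.09 (adjusted p = 1.25e-12) for hypomorph against day 0, and 1.60 ± 0.09 (adjusted p = 2.83e-13) for hypomorph against KO. Slc7a11, the cystine/glutamate antiporter, had 44.4, 43.0 and 42.4 scaled CPM in hypomorph and 104, 97.3 and 96.2 in KO cells at day 4, and 112, 132 and 113 at day 0. Hypomorph libraries were below all libraries of both other groups, with log2 values of -1.44 ± 0.08 (adjusted p = 9.86e-14) against day 0 and -1.19 ± 0.08 (adjusted p = 7.85e-12) against KO. Dhrs9, a retinol dehydrogenase of the short-chain family, had 49.5, 48.3 and 48.8 scaled CPM in hypomorph and 198, 169 and 188 in KO cells at day 6, and 73.8, 74.2 and 82.5 at day 0. Against day 0 its log2 change was -0.65 ± 0.07 (adjusted p = 1.32e-08) in hypomorph cells and 1.26 ± 0.07 (adjusted p = 1.06e-14) in KO cells.

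**Figure D5:**
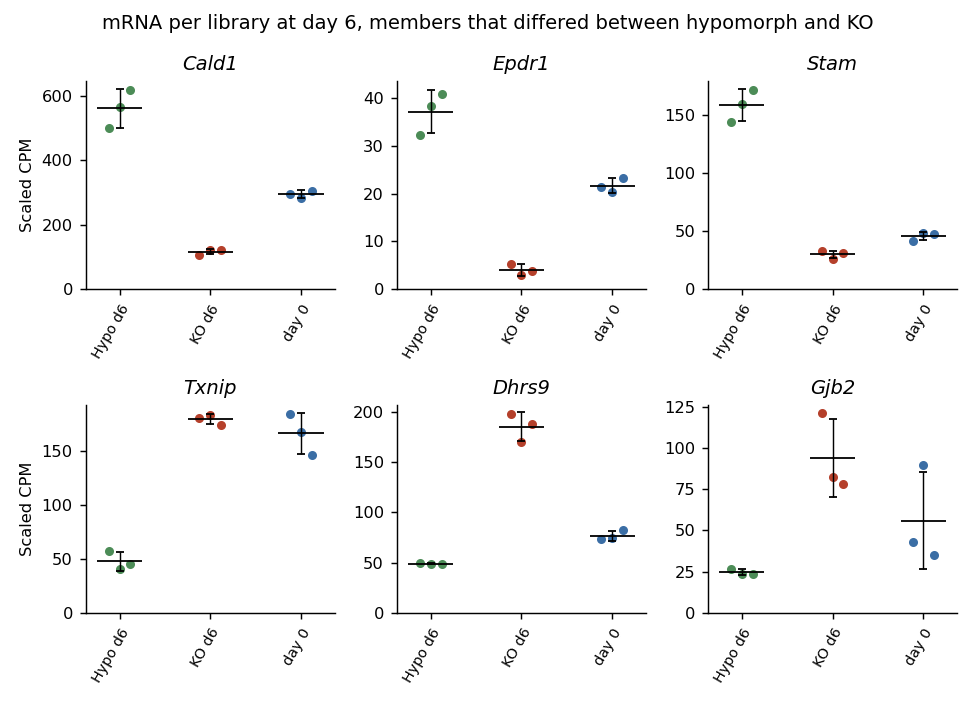
Scaled CPM of 6 large-shift genes in hypomorph day 6, KO day 6 and day 0 libraries, with points for the 3 libraries of a group, a horizontal line at their mean and bars of 1 SD. Cald1, Epdr1 and Stam (top) are higher in every hypomorph library than in every KO library, and Txnip, Dhrs9 and Gjb2 (bottom) are lower. This separation was a condition for naming the genes.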

How the data were processed

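The PAS-seq ratios (proximal over distal site, 1 per gene and group, pooled by the authors) and the authors' calls were used as deposited. Per the submitters' processing notes, STAR aligned the PAS-seq reads to mm9 and the mRNA reads to mm10, featureCounts counted both, and versions were not given. The deposited mRNA table holds a signal per gene and library, CPM rescaled by the authors, where plain CPM had been assumed. The authors' log2 changes and p-values, deposited beside it, were not used for any result. Whole reads were recovered from the signal (100% of values within 0.1 of a whole read), and no unique molecular identifiers were described. A total of 6 small RNA columns were not used.

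Shares were 100 × ratio / (1 + ratio), an infinite ratio being 100%. Differences were tested two-sided with limma 3.58.1 (R 4.3.3, mean-variance trend, robust) on log2(scaled CPM + 0.5) in 1 fit of 18 libraries in 6 groups, for genes at 1 or more in at least 3 libraries, with Benjamini-Hochberg adjustment over all 12344 genes, in 7 comparisons. Alternatives used edgeR 4.0.16 and DESeq2 1.42.0. The fit was checked on simulated counts. Deviations from the group mean correlated positively at every replicate number only for KO day 4 against day 0 (0.36, 0.71 and 0.27). In order of replicate number, Alb was at 437, 9.53 and 762 scaled CPM at KO day 4 and 517, 6.97 and 314 at day 0. Whether the numbers mark pairs of libraries or the correlations follow Alb was not tested, and the main fit was unpaired.

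The genes and lists were chosen with earlier results of these data known. Named by rule were Nudt21, the 10 largest shifts, the 3 nearest either side of the threshold, the 6 largest rises and 6 largest falls at KO days 4 and 6 (4 each at day 2) with no overlap of groups and at least 5 scaled CPM in the higher one, the 4 largest shifts with no KO call, the 3 largest hypomorph against KO differences of each sign, and list members, taken from the family lists by their change at KO day 4. Srsf2, Srsf10, Sf3b3, Prpf4b, Prpf38b, Prpf18, Sf3b1, Cdkn2aip, Nrp1, Nrp2, Itga6 and Acta2 were named after their values were seen. The hypomorph against KO genes also had to pass the threshold, show no overlap of groups and reach 5 scaled CPM in the higher one. Gene positions are RefSeq GRCm38. A few of the genes so chosen are left out of the text.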

Additional observations from a re-analysis of the deposited data

Results flagged for a closer look

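For 12 pairs of gene and day the difference between hypomorph and KO cells was itself past the threshold (limma, adjusted p) and was among the largest of the large-shift genes. A call and no overlap between hypomorph and KO libraries were conditions for naming these genes, so neither is a separate result. At day 4 the log2 difference, hypomorph over KO, was 1.60 for St3gal1, 1.01 for Slc10a7 and 0.99 for Cald1, and -1.19 for Slc7a11, -0.98 for Emb and -0.96 for Entpd5. At day 6 it was 3.07 for Epdr1, 2.38 for Stam and 2.25 for Cald1, and -1.91 for Txnip, -1.91 for Dhrs9 and -1.88 for Gjb2.

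Emb, which encodes embigin, had 42.2, 41.0 and 35.9 scaled CPM in hypomorph and 76.8, 79.4 and 79.4 in KO cells at day 4. Entpd5, a UDPase of the endoplasmic reticulum, had 42.7, 39.9 and 40.8 in hypomorph and 81.7, 77.6 and 82.9 in KO cells at day 4. Txnip, an inhibitor of thioredoxin, had 57.7, 40.3 and 45.1 in hypomorph and 180.0, 183 and 174 in KO cells at day 6. Gjb2, the gap junction protein connexin 26, had 26.7, 23.9 and 23.5 in hypomorph and 121, 82.4 and 78.1 in KO cells at day 6. In all 4 genes every hypomorph library was below every KO library, as the rule that named them required. Slc10a7 had 33.3, 31.4 and 33.2 in hypomorph and 13.4, 17.0 and 17.6 in KO cells at day 4, with every hypomorph library above every KO library.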

How the results depend on the processing

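The number of large-shift genes called moved by over 1.5 times under 1 alternative, which was added after the data were seen and left out the libraries above 100 scaled CPM of Alb. It gave 140 for KO day 2 (main 336), 346 for KO day 4 (main 611), 203 for hypomorph day 4 (main 428) and 146 for hypomorph against KO at day 4 (main 371). It leaves 1 library each in day 0, KO day 4 and KO day 6, assumed to vary like the others, so fewer samples enter these counts. In the same setting Gjb2 reversed in KO cells, to -0.75 (adjusted p = 0.00533) at day 4 and -0.19 (adjusted p = 0.389) at day 6, and the cause was not tested. Leaving out 1 library in turn gave 238 to 313 calls at KO day 2, 552 to 577 at KO day 4, 731 to 742 at KO day 6, 323 to 389 at hypomorph day 4, 677 to 721 at hypomorph day 6, 279 to 308 for hypomorph against KO at day 4 and 651 to 693 at day 6. Using the replicate number as a block KO day 4 had 621 calls, KO day 2 348 and KO day 6 766, and the block changed no count by over 1.5 times. Thresholds of 40 and 60 points gave 1313 and 671 genes. Of 567 pairs of named gene and comparison 163 lost or gained a call under at least 1 alternative. Another annotated transcript length was not run. Precision is limited by 3 libraries a group, by depths that differ between groups and by PAS-seq ratios without depth or replicates.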

Other observations

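Of the large-shift genes 96 were listed at 0% proximal use in control cells. At KO day 2, 11 of them rose and 13 fell (11.5% and 13.5%), at day 4, 26 rose and 34 fell (27.1% and 35.4%), and at day 6, 30 rose and 44 fell (31.2% and 45.8%) by limma at an adjusted p under 0.05. The falls compare with 17.2%, 38.2% and 49.2% of the 978 genes and with 7.29%, 22.3% and 37.5% of all tested genes. The 27 genes listed at 100% in KO cells gave 2 up and 4 down at day 2, 3 up and 6 down at day 4, and 7 up and 10 down at day 6. In either direction 33.3% of them passed at day 4, below the 62.5% of the 978 genes and the 46% of all tested genes, a difference that was not tested. Itga6, the integrin alpha 6 chain of basal cells, was the one basal marker in the set, with 97.6% proximal use in KO and 17.2% in control cells.

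Among the large-shift genes the share that fell at KO day 6 differed with length. Cut at the quartiles of length, it was 58.0% in the shortest class, 53.3% and 48.4% in the middle classes and 37.1% in the longest. Genes that shifted by 20 to under 50 points showed the same order, with 55.6%, 50%, 46.6% and 40.1%, and those below 20 points gave 49.7%, 53.4%, 50.2% and 44.9%, beside 37.5% of all tested genes. At day 4 the classes of large-shift genes gave 36.3%, 40.6%, 44.7% and 31.4%. Rank correlations between length and the log2 change across the 978 genes were 0.08, 0.05 and 0.15 at days 2, 4 and 6, and those between day 0 level and the log2 change were -0.03, -0.13 and -0.18.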
